A study of Mus musculus with 6 samples.

Results

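The genes described here are 43 mouse genes that encode axon guidance ligands and receptors: 9 EphA and 5 EphB receptors, 5 ephrin-A and 3 ephrin-B ligands, 9 genes of the netrin system, 6 Slit and Robo genes, 3 FLRT genes and the 3 genes of the CXCL12 axis. They were listed by gene family, and no measured value entered the rule, although earlier results of these data were known when the list was chosen. A row of the table could be assigned to 37 of them, and these 37 genes held 60 of its 32357 rows. The other 6 (Epha1, Efna2, Efna4, Ntn3, Flrt1 and Flrt3) lay in longer assembled loci, in 5 cases with other protein-coding genes wholly inside. No value is given for them.

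Primary cultures were made from the cerebral cortex of Balb/c mouse embryos at E14.5. The dissociated cells were nucleofected, just before plating in medium with serum, with a plasmid encoding a non-silencing shRNA (2 libraries), Neurod2 shRNA-1 (2 libraries) or Neurod2 shRNA-2 (2 libraries). All plasmids had a backbone that also encodes GFP and a neomycin resistance gene, so the 6 libraries share electroporation and a plasmid, and no sorting of transfected cells before total RNA was collected is mentioned. According to the labels, RNA was taken after 4 days in vitro, while the published methods give a later day. Reads were single-end and 50 bp long. The deposited table pools the 2 non-silencing libraries into 1 value per row and the 4 knockdown libraries, both shRNAs together, into another. Values are in FPKM, fragment counts divided by transcript length and by library size, which allows levels of different genes to be compared per length. With 1 value per group there is no spread between libraries, no test, and no separate value for either shRNA, and the number of reads behind a value is unknown. Every difference below is a description of these pooled libraries. Because cultures are mixtures, fewer cells of a type and less RNA per cell cannot be told apart.

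NEUROD2 is a basic helix-loop-helix transcription factor of cortical excitatory neurons, and the comparison asks which transcripts differ when it is reduced. Its own transcript had a level of 104.8 FPKM in the non-silencing group and 60.3 FPKM in the knockdown group, a log2 ratio of -0.80. Ratios are given throughout as knockdown over non-silencing. Some transcript therefore remained in the knockdown group, and the ratios of all other genes were read at that residual level.

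Guidance receptors tell growing axons and migrating neurons where to go. Eph receptors are receptor tyrosine kinases that bind membrane-bound ephrins on neighboring cells, ephrin-A ligands through a lipid anchor and ephrin-B ligands through a transmembrane domain, and signals can run in both directions. Netrins are secreted proteins that attract axons through DCC and neogenin and repel them through UNC5 receptors. Slits are secreted repellents read by Robo receptors. FLRT proteins are adhesion molecules that bind UNC5 receptors and latrophilins, and CXCL12 is a chemokine that guides Cajal-Retzius cells and interneurons through CXCR4, while ACKR3 takes CXCL12 up.

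Several of these genes are long and carry small RNA genes within their introns. Inside the loci of 8 guidance genes the annotation places 12 small RNA genes, none of which overlaps an exon of its host. The mature microRNAs of Slit2, Slit3, Epha4 and Robo2 are shown because their loci in Slit2, Epha4 and Robo2 also hold, each as a row of 1 transcript, the 3 guidance gene rows with the lowest ratios among rows with a mean of both groups of at least 1 FPKM, and because Slit3 holds the other copy of the Slit2 microRNA. Sequences are those of RefSeq on GRCm38.p6, and capitals mark the seed, bases 2 to 8.
mmu-miR-218-5p: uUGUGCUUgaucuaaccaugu
mmu-miR-218-1-3p: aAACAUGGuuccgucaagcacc
mmu-miR-218-2-3p: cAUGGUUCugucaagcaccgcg
mmu-miR-6352: uUUGGGAAaaggaccccagcuc
mmu-miR-691: aUUCCUGAagagaggcagaaaa
The mature miR-218-5p is made from 2 hairpins, Mir218-1 in Slit2 (chr5:48223942-48224051, plus strand) and Mir218-2 in Slit3 (chr11:35616816-35616925, plus strand), and both copies have the same sequence and seed. The 3p strands of these hairpins have different seeds. Mir6352 lies in an intron of Epha4 (chr1:77496653-77496768, minus strand) and Mir691 in an intron of Robo2 (chr16:74341990-74342067, minus strand), each on the strand of its host. Robo2 also holds a snoRNA gene, Gm22163, on its own strand and a microRNA gene, Gm24272, on the other strand. The microRNAs themselves were not measured in this assay.

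Across the table, 12626 rows had a mean of both groups of at least 1 FPKM and a value above 0 in each. Their median log2 ratio was -0.03, and 95% of them lay between -0.52 and 0.43. A ratio over 1.5-fold was reached by 1.35% of these rows in the higher direction and 2.09% in the lower direction, and a ratio over 2-fold by 0.578% and 0.792%. Among the 7942 rows that combine 2 or more transcripts, 0.793% were higher and 1.16% lower by over 1.5-fold.

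Few of the guidance genes differed by 1.5-fold. Of their 60 rows, 36 reached a mean of 1 FPKM, and of these 1 was higher by over 1.5-fold (Unc5b) and 3 were lower (single-transcript rows of Slit2, Epha4 and Robo2). The other 24 rows were under this minimum or listed at 0 in a group. These counts are 2.78% and 8.33% of 36 rows, beside 1.35% and 2.09% of all rows. Over 2-fold, 0 rows were higher and 2 were lower, those of Slit2 and Epha4. The 3 low rows are those of 1 transcript each in genes that also have a row of several transcripts, and the rows of several transcripts in the same 3 genes had log2 ratios between 0.03 and 0.17. Among the 25 guidance gene rows of 2 or more transcripts, 1 was higher and none was lower by over 1.5-fold.

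Because 15 of the 37 genes had more than 1 row, a gene's value depended on which row stood for it. Where the row with the largest overlap with the annotated gene was used, and ties were settled by level, the single-transcript rows stood for Slit2 and Robo2, and 31 genes reached 1 FPKM with 1 higher and 2 lower by over 1.5-fold and a median log2 ratio of -0.01. Where rows marked as tested and rows of 2 or more transcripts came first, 31 genes again reached 1 FPKM, with 1 higher and 0 lower, a median of 0.03 and a range from -0.28 for Slit1 to 0.60 for Unc5b. The second choice is used below unless a row is named, and it was made after the values had been seen. In it, 19 of the 31 genes lay above the median of all rows.

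**Figure D1:**
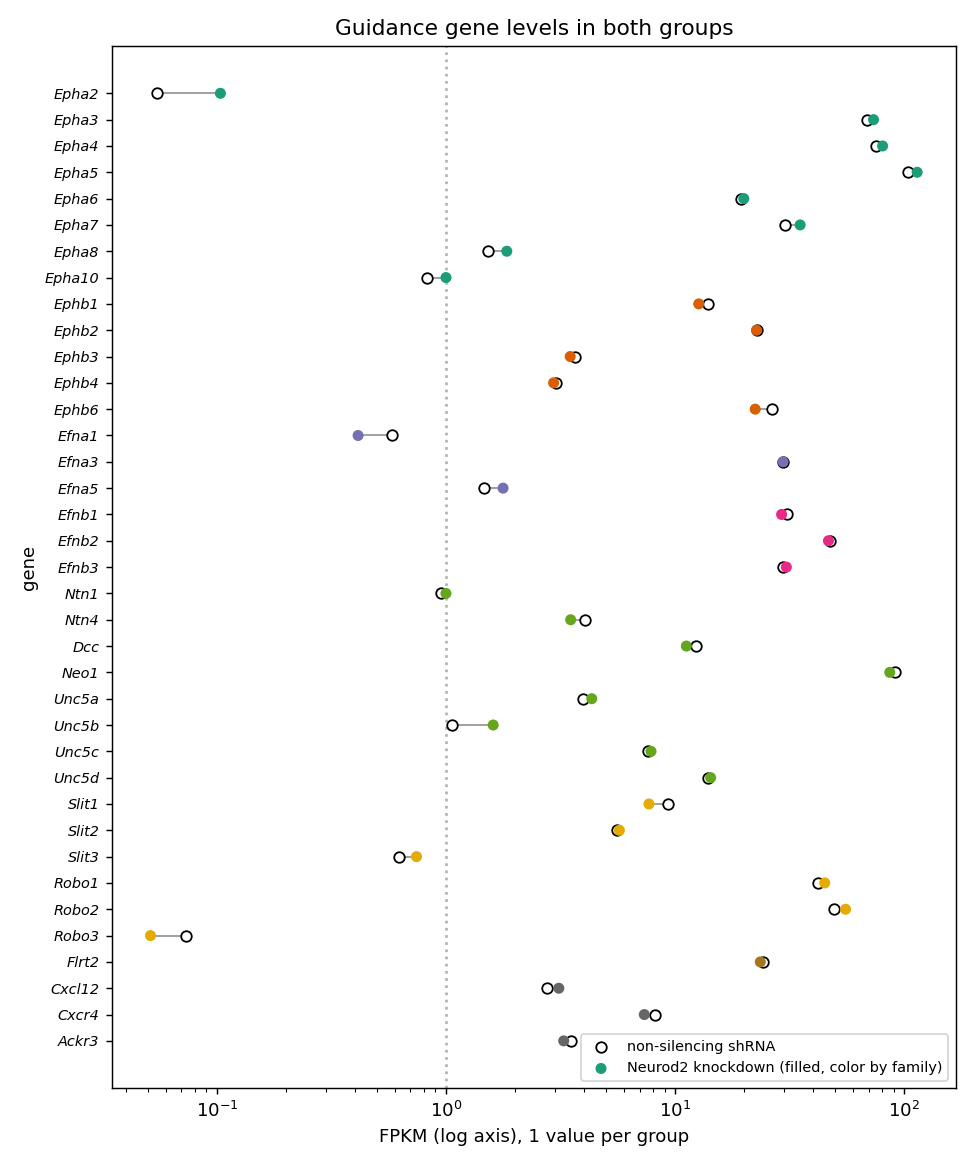
Levels of the 37 guidance genes that have a row, in FPKM on a log axis, with an open circle for the non-silencing group and a filled circle for the Neurod2 knockdown group, colored by gene family; each circle is 1 pooled value and the dotted line marks 1 FPKM. Most pairs of circles touch or overlap, levels run from under 0.1 FPKM for Epha2 and Robo3 to above 100 FPKM for Epha5, and Unc5b has the widest gap among genes above 1 FPKM.

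The cultures expressed a broad set of guidance receptors. In order of their mean level the leading genes were Epha5 (109.3 FPKM), Neo1 (88.8 FPKM), Epha4 (77.9 FPKM), Epha3 (71.2 FPKM), Robo2 (52.4 FPKM), Efnb2 (47.1 FPKM) and Robo1 (43.6 FPKM). The level of Epha5 was above that of 94.5% of all rows that reached 1 FPKM, and that of Robo1 above 83.8%. Receptors thus led the list, with Efnb2 as the most abundant ligand. At the other end 6 genes with a row had a mean below 1 FPKM: Ntn1 (0.974 FPKM), Epha10 (0.912 FPKM), Slit3 (0.684 FPKM), Efna1 (0.496 FPKM), Epha2 (0.0791 FPKM) and Robo3 (0.0623 FPKM).

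EphA receptors bind ephrin-A ligands and, in the case of EPHA4, also ephrin-B ligands. With 1 row per gene, all 6 EphA genes that reached 1 FPKM had a log2 ratio above 0 and above the median of all rows, with a median of 0.11, but where all rows of a gene were summed Epha4 was at -0.29, on the other side. The sum over the 8 genes with a row was 300.7 FPKM in the non-silencing group and 326.5 FPKM in the knockdown group with 1 row per gene, and 347.3 FPKM and 347.1 FPKM over all their rows, so the EphA total differed only with the first choice. The total over all rows includes the single-transcript row of Epha4 (43.6 FPKM and 16.8 FPKM). Which transcript that row counts is not known, so it may not be receptor transcript. Epha5 (chr5:84054761-84417382), which is widely expressed in the forebrain, measured 104.5 FPKM and 114.1 FPKM, a log2 ratio of 0.13. Epha3 measured 68.8 FPKM and 73.6 FPKM, a log2 ratio of 0.10. Epha7 (chr4:28813131-28967499), a receptor involved in corticothalamic mapping, measured 30.3 FPKM and 35.2 FPKM, a log2 ratio of 0.22. Each of these ratios lay within the range that held 95% of all rows.

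The other EphA genes had lower levels. Epha8 measured 1.53 FPKM in the non-silencing group and 1.84 FPKM in the knockdown group, a log2 ratio of 0.27. Epha6 had 2 rows above 1 FPKM, the larger of which measured 19.5 FPKM and 20.0 FPKM (log2 ratio 0.03) and the smaller 2.87 FPKM and 3.71 FPKM (log2 ratio 0.37). Below the minimum, Epha10 measured 0.824 FPKM and 1.00 FPKM in its row of 2 transcripts, and Epha2 0.0547 FPKM and 0.104 FPKM. A row of 1 transcript, matched to Epha10 without regard to strand, measured 0.185 FPKM and 0.0658 FPKM. These are levels at which few fragments can stand behind a value, and no ratio was read from them.

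Epha4 (chr1:77367185-77515088, minus strand) showed how the result depends on the row. EPHA4 is a receptor that drives growth cone collapse in many axon tracts. Its row of 2 transcripts measured 75.2 FPKM in the non-silencing group and 80.6 FPKM in the knockdown group, a log2 ratio of 0.10. Its row of a single transcript measured 43.6 FPKM and 16.8 FPKM, 2.60-fold lower, a log2 ratio of -1.38. The rows were on opposite sides of 0, their sum had a log2 ratio of -0.29, and the locus holds Mir6352.

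EphB receptors bind ephrin-B ligands and take part in axon fasciculation and synapse formation. With the scaling of the authors, all 5 EphB genes had log2 ratios below 0 (median -0.06), but 1 of them, Ephb2, lay above the median of all rows, and with upper-quartile scaling, which adds 0.22 to every log2 ratio, the EphB median was above 0, at 0.15. Ephb6, a member without kinase activity, measured 26.5 FPKM and 22.4 FPKM, a log2 ratio of -0.24 and the lowest of the family. Ephb1 measured 13.9 FPKM and 12.7 FPKM, a log2 ratio of -0.13. Ephb2 (22.9 FPKM and 22.7 FPKM), Ephb3 (3.65 FPKM and 3.49 FPKM) and Ephb4 (3.04 FPKM and 2.95 FPKM) had log2 ratios between -0.06 and -0.01. The sum over the family was 70.1 FPKM and 64.2 FPKM. In the rows used, EphA and EphB values thus lay on different sides of the median of all rows with the exception of Ephb2, and neither family had a gene past 1.5-fold there; the difference between the families was not tested.

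The ephrins were close to equal in both groups. Among the ephrin-A ligands, which are anchored in the outer membrane by a lipid, Efna3 had nearly the same level in both groups, 29.7 FPKM and 29.6 FPKM. Efna5, the ligand that shapes topographic maps, was low, with 1.47 FPKM and 1.78 FPKM and a log2 ratio of 0.27. Efna1 was below the minimum, with 0.579 FPKM and 0.413 FPKM. The ephrin-B ligands, which signal back into their own cell through a cytoplasmic tail, were all abundant. Efnb1 measured 30.9 FPKM and 29.2 FPKM, Efnb2 47.4 FPKM and 46.8 FPKM, and Efnb3 29.6 FPKM and 30.6 FPKM. Their log2 ratios ran from -0.08 to 0.05.

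**Figure D2:**
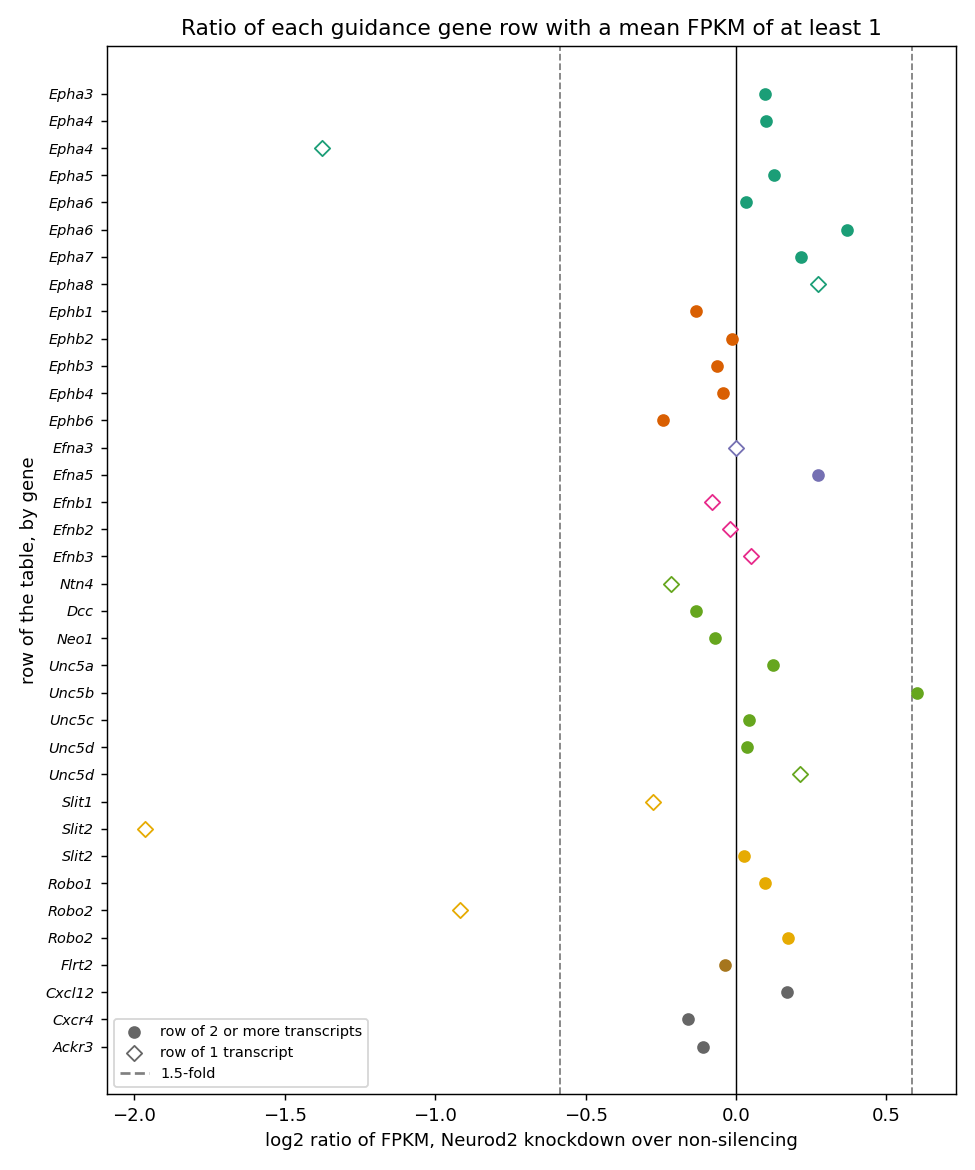
Log2 ratio of FPKM, knockdown over non-silencing, for each of the 36 guidance gene rows with a mean of at least 1 FPKM, colored by family; circles are rows of 2 or more transcripts, diamonds rows of 1 transcript, and dashed lines mark 1.5-fold. The only points left of the lower line are the single-transcript rows of Slit2 (-1.96), Epha4 (-1.38) and Robo2 (-0.92), and only Unc5b (0.60) lies right of the upper line.

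In the netrin system, the ligands were low and the receptors mixed. Ntn1, the classical midline attractant, had 0.947 FPKM in the non-silencing group and 1.00 FPKM in the knockdown group in its tested row. Another row of 1 transcript at the same position was listed at 0 in the non-silencing group and at 4.29 FPKM in the knockdown group. No ratio can be taken from that row. It was matched without regard to strand and may not count a transcript of Ntn1. Ntn4, a laminin-like netrin of basement membranes, measured 4.06 FPKM and 3.50 FPKM, a log2 ratio of -0.21. The attractive receptor Dcc measured 12.3 FPKM and 11.2 FPKM (log2 ratio -0.13), and its relative Neo1, which also binds repulsive guidance molecules, measured 91.0 FPKM and 86.6 FPKM (log2 ratio -0.07). Neo1 was thus several times more abundant per length than Dcc in both groups. Their log2 ratios were below the median of all rows.

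The 4 UNC5 receptors mediate repulsion by netrins, and UNC5D and UNC5B also bind FLRT proteins. All 4 had log2 ratios above 0 in their main row. Unc5b (chr10:60762593-60831581, minus strand) measured 1.06 FPKM in the non-silencing group and 1.61 FPKM in the knockdown group, 1.52-fold higher, a log2 ratio of 0.60. It was the only guidance gene above both the 1.5-fold line and the range that held 95% of all rows, and it was also the lowest of the 31 genes that reached 1 FPKM. Of the 557 rows of 2 or more transcripts with a mean from 1 to 2 FPKM, 18 (3.23%) were higher by over 1.5-fold, so ratios of this size were more frequent at this level than among all rows of this kind (0.793%). With 0.1 FPKM added to both values before the ratio was taken, the log2 ratio of Unc5b was 0.56 and no longer past 1.5-fold.

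The other UNC5 genes were near equality. Unc5a measured 3.98 FPKM and 4.33 FPKM (log2 ratio 0.12), Unc5c 7.62 FPKM and 7.86 FPKM (log2 ratio 0.05), and Unc5d 14.0 FPKM and 14.3 FPKM (log2 ratio 0.04). Unc5d also had a row of 1 transcript, with 1.00 FPKM and 1.16 FPKM. Flrt2, the FLRT gene with a row, measured 24.1 FPKM and 23.6 FPKM, a log2 ratio of -0.03. Transcripts of both members of the UNC5D and FLRT2 pair were thus present, each at similar levels in both groups, and protein was not measured.

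The Slit and Robo genes held the widest split between rows. Slit1 (chr19:41600257-41743665), a repellent made in the embryonic forebrain, had only 1 row, with 9.32 FPKM in the non-silencing group and 7.70 FPKM in the knockdown group, 1.21-fold lower, a log2 ratio of -0.28. Slit2 (chr5:47983138-48307733, plus strand), the best known repellent of the family, had a row of 7 transcripts with 5.61 FPKM and 5.72 FPKM, a log2 ratio of 0.03. A second row of Slit2, of 1 transcript, measured 23.5 FPKM and 6.04 FPKM, 3.90-fold lower, a log2 ratio of -1.96. Slit3 was below the minimum, with 0.624 FPKM and 0.744 FPKM.

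The Robo receptors were among the most abundant guidance genes. Robo1 measured 42.2 FPKM and 45.1 FPKM, a log2 ratio of 0.10; its annotated span overlapped the assembled locus by little more than the minimum. Robo2 (chr16:73891839-74411825, minus strand) had a row of 7 transcripts with 49.2 FPKM and 55.6 FPKM, a log2 ratio of 0.17. Its row of 1 transcript measured 201.3 FPKM and 106.7 FPKM, 1.89-fold lower, a log2 ratio of -0.92. Robo3, the receptor of commissural axons, was near 0, with 0.0732 FPKM and 0.0513 FPKM. The median of the 4 Slit and Robo genes that reached 1 FPKM was therefore 0.06 with the rows of several transcripts and -0.60 with the single-transcript rows of Slit2 and Robo2, and the direction of the family turned on that choice.

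The 3 low rows share features with each other that the choice of genes did not use. Each is a row of 1 transcript at the same position as a row of several transcripts of its gene. Each locus holds at least 1 microRNA gene. A single-transcript row matched to Ntn1 also shares its position and was listed at 0 FPKM in the non-silencing group and at 4.29 FPKM in the knockdown group. Its locus holds a microRNA gene on the strand opposite to Ntn1, and the match of the row did not use strand. Epha6 and Ephb1 loci also hold a microRNA gene. Their rows that reached 1 FPKM were within 1.5-fold, but these are all rows of 2 or more transcripts, unlike the 3 low rows. Their rows of 1 transcript were under 1 FPKM. The table does not say which small or long transcript a single-transcript row counts. Over the whole table, 554 rows of 1 transcript with a small RNA gene inside and a shared position reached 1 FPKM, and 107 of them (19.3%) were past 1.5-fold in either direction. Among 3896 rows of 1 transcript without a small RNA gene inside, 140 (3.59%) were past it, among 1479 rows of several transcripts with a small RNA gene 60 (4.06%), and among 6463 rows of several transcripts without one 95 (1.47%). Of the 107 rows, 39 were higher and 68 lower, so rows of this kind lay on both sides. The first kind has the features of the 3 low rows and includes them, and only it requires a shared position. These kinds do not cover all 4684 rows of 1 transcript that reached 1 FPKM. Rows of 1 transcript with a small RNA gene inside and an unshared position were not counted separately. Without that kind, position sharing and small RNA genes cannot be told apart in these shares. The part of either in the 3 low rows was not tested.

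**Figure D3:**
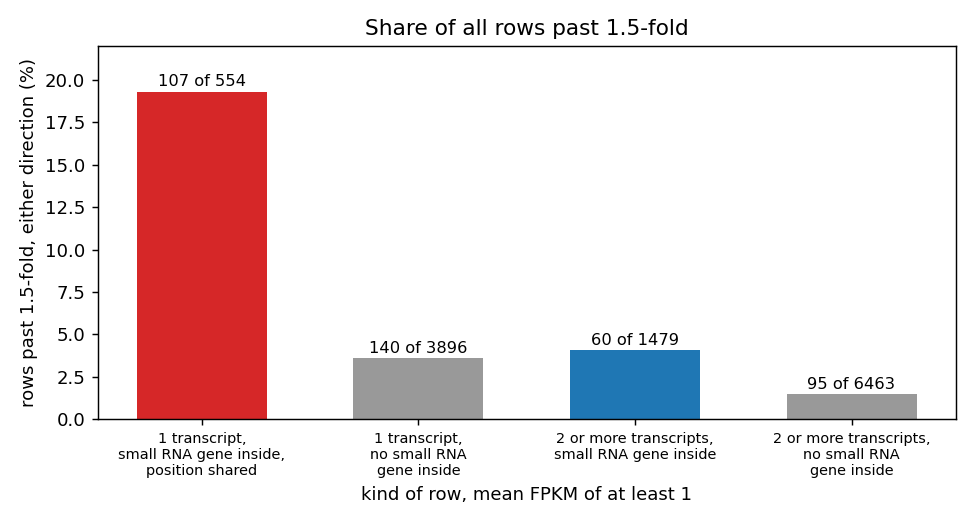
Share of all rows with a mean of at least 1 FPKM that were past 1.5-fold in either direction, in percent, for 4 kinds of row; the numbers above the bars give the rows past 1.5-fold and all rows of that kind. The tallest bar, 19.3%, is that of single-transcript rows whose position is shared and holds a small RNA gene, the kind to which the low rows of Slit2, Epha4 and Robo2 belong. The other bars are not limited to shared positions, and single-transcript rows with a small RNA gene at an unshared position have no bar.

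**Figure D4:**
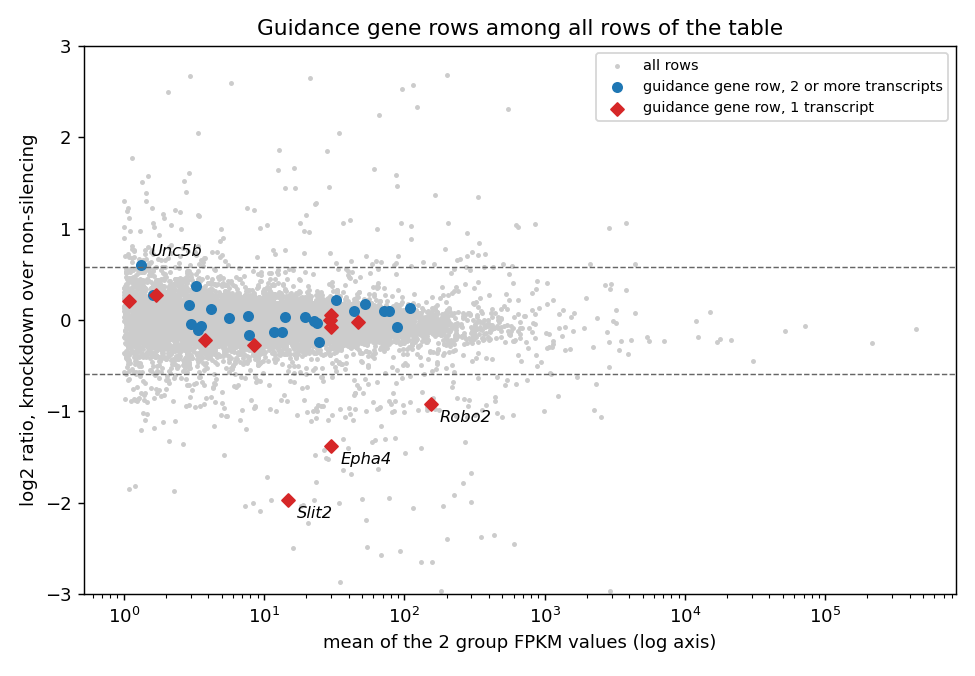
Log2 ratio of FPKM against the mean of both groups on a log axis for all rows of at least 1 FPKM (gray), with guidance gene rows of 2 or more transcripts in blue and of 1 transcript in red; dashed lines mark 1.5-fold and 18 rows lie beyond the vertical axis. The blue points stay between the dashed lines except Unc5b, near the left edge, while red points of Slit2, Epha4 and Robo2 lie below the lower line at means of 14.8, 30.2 and 154.0 FPKM.

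The genes of the CXCL12 axis all had means under 8 FPKM, with Cxcr4, the highest, above 35.4% of the rows that reached 1 FPKM. The ligand Cxcl12 measured 2.77 FPKM and 3.11 FPKM (log2 ratio 0.17), its signaling receptor Cxcr4 8.20 FPKM and 7.35 FPKM (log2 ratio -0.16), and the scavenging receptor Ackr3 3.53 FPKM and 3.27 FPKM (log2 ratio -0.11). None was past 1.5-fold.

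Cell type markers were read beside these values. The markers of Cajal-Retzius cells, early neurons that secrete reelin and respond to CXCL12, differed with the group: 4 of 4 that reached 1 FPKM were higher in the knockdown group by over 1.5-fold (Reln 11.7 FPKM and 24.3 FPKM, Calb2 3.54 FPKM and 6.59 FPKM, Nhlh2 2.48 FPKM and 4.34 FPKM, Ndnf 2.49 FPKM and 4.09 FPKM), while Trp73 and Lhx5 stayed under 1 FPKM. Of all rows that reached 1 FPKM, 1.35% were higher by over 1.5-fold. The published study of these libraries had already reported higher Reln after knockdown, and the marker lists were chosen with earlier results known. The count of 4 is therefore not independent of those results. The sum over the 6 markers was 20.8 FPKM and 40.4 FPKM, of which Reln made up 11.7 FPKM and 24.3 FPKM. The astrocyte sum was 221.5 FPKM and 208.6 FPKM, with Gfap at 57.4 FPKM and 35.1 FPKM, Aldoc at 69.9 FPKM and 76.5 FPKM and Slc1a3 at 87.5 FPKM and 90.4 FPKM. Without Gfap the astrocyte sum was 164.1 FPKM and 173.4 FPKM. Neuron markers summed to 1796 FPKM and 1924 FPKM, excitatory cortical neuron markers to 435.1 FPKM and 449.3 FPKM, radial glia markers to 250.2 FPKM and 236.6 FPKM, and oligodendrocyte lineage markers to 111.4 FPKM and 104.0 FPKM. Of 6 listed genes each, 3 interneuron, 4 radial glia and 5 astrocyte markers had a row, and missing ones add nothing to the sums. The sums of interneuron markers (3.82 FPKM and 4.00 FPKM, over 3 genes) and of fibroblast and mural cell markers (3.73 FPKM and 4.98 FPKM, over 6 genes) were low. Of the latter, Col1a1 had 0.125 FPKM and 0.975 FPKM and Col3a1 0.171 FPKM and 0.765 FPKM, both under the minimum. All 6 endothelial and all 4 microglial markers with a row were under 1 FPKM. The part of these mixtures in the guidance gene values was not tested.

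The other genes of the pathway were read in the same way, beside 1.35% of all rows that were higher and 2.09% that were lower by over 1.5-fold. Of 13 direct partners, such as secreted antagonists and latrophilins, 12 had a row and reached 1 FPKM, and 0 were past 1.5-fold in either direction (median log2 ratio -0.07). Ntng1, a membrane-bound netrin relative, measured 4.26 FPKM and 5.86 FPKM (log2 ratio 0.46), Lrig2 18.3 FPKM and 15.4 FPKM (-0.26) and the netrin receptor Dscam 5.03 FPKM and 4.26 FPKM (-0.24). Of 36 shared effectors, the kinases, exchange factors and adaptors that act below these receptors, 34 had a row, and 0 were past 1.5-fold (median 0.02). With lists of this size, counts of 0 are near those shares, and no difference from the guidance genes was tested. The exchange factor Vav3 had 3.25 FPKM and 4.03 FPKM (log2 ratio 0.31), and the kinases Yes1 (0.22) and Src (-0.20) had the next widest log2 ratios.

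Semaphorins, plexins and neuropilins are the remaining large guidance system. All 31 genes had a row, 27 reached 1 FPKM, and 0 were past 1.5-fold, with 13 above and 14 below 0 and a median log2 ratio of -0.02; of all rows 41.6% were above 0, and a count of 0 among 27 is again near the shares past 1.5-fold. The neuropilins, coreceptors for secreted semaphorins, were on different sides: Nrp2 measured 4.11 FPKM and 5.64 FPKM (log2 ratio 0.46) and Nrp1 28.9 FPKM and 22.4 FPKM (log2 ratio -0.37). Sema3b measured 1.24 FPKM and 1.69 FPKM (log2 ratio 0.45).

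**Figure D5:**
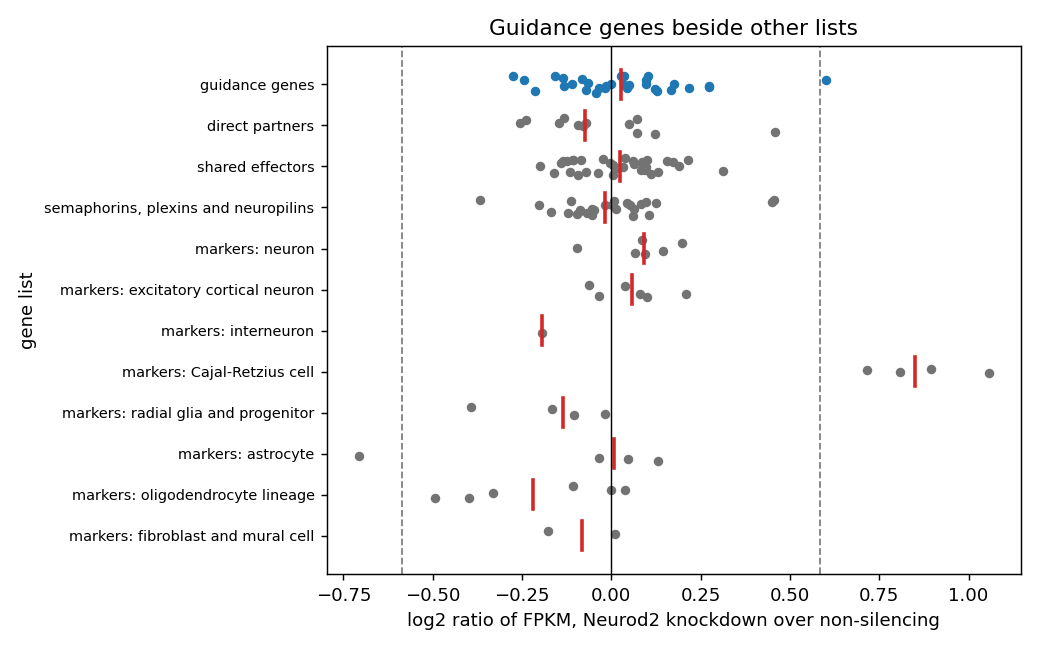
Log2 ratio of FPKM, knockdown over non-silencing, for the guidance genes (blue), their partners and effectors, the semaphorin system and cell type markers (gray), 1 point per gene with a mean of at least 1 FPKM, with rows of several transcripts used first; red bars mark medians and dashed lines 1.5-fold. Medians of the first 4 lists lie between -0.07 and 0.03, and the 4 Cajal-Retzius markers lie right of the upper line.

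The promoters of the guidance genes were searched for the E-box letters CAGATG and CAGCTG, of the kind that NEUROD family factors bind, on both strands (CATCTG is the complement of CAGATG, and CAGCTG is its own complement). RefSeq promoter windows, 250 bases before and 50 after each start site, were found for 37 of the 43 genes and number 42. CAGATG or its complement was in 4 of 42 windows (9.52%) and in 17.2% of all 32851 windows. CAGCTG was in 4 of 42 (9.52%) and in 16.3% of all windows. Either was in 7 of 42 (16.7%) and in 30.6% of all windows, while the median GC content was 64.7% in the guidance gene windows and 52.7% in all. The upstream parts of the windows are shown for Unc5b (chr10:60831582-60831831, minus strand), the gene past 1.5-fold, and for Epha6 (chr16:60605532-60605781, minus strand), which held both words, with the matches in capitals.
Unc5b: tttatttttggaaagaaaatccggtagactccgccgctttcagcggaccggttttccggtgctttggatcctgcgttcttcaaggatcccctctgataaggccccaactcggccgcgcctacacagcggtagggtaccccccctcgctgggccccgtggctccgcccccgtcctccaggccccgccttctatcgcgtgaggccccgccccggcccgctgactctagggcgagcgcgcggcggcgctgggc
Epha6: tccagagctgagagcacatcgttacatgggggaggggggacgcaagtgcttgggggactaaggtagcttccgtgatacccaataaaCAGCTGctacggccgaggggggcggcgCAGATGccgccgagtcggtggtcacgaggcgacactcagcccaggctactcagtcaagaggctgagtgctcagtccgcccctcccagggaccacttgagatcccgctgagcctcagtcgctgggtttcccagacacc
The matches of Epha6 start at positions -164 and -137 from its start site, and its main row had a log2 ratio of 0.03. The Unc5b sequence holds no match. A match is only a match of letters, and distant sites were not searched.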

How the data were processed

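Gene expression was measured by RNA-seq in 6 libraries, of which 2 carried the non-silencing shRNA and 4 an shRNA against Neurod2 (2 each). The labels name mm10, TopHat, Cufflinks and Cuffdiff, by which the authors mapped, assembled and compared the reads; for their versions and settings the sources used here give nothing. The other deposited columns, not used as results, hold the authors' own log2 fold change, test statistic (a score), p-value and q-value. The values used are FPKM as deposited by the authors, 1 pooled value per group, so library depth and the spread between libraries are unknown, and nothing says that libraries of a group came from separate cultures.

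A spreadsheet had turned many cells of the deposited table into times. The possible numbers behind such a cell were listed and kept where their ratio gave the deposited log2 fold change within 2e-05, the sole use of that column. This restored 4942 rows, 11 of them of guidance genes, and left 91 open. In simulated data, 99.4% of 2986 altered pairs were restored and 0 wrongly. The simulation altered cells by the same rules that were undone. Its values also spanned a narrower range than the restored rows, which include Epha8 at 1.53 FPKM and 1.84 FPKM. Rows carry transcript identifiers without gene names and were matched to GENCODE M21 genes on GRCm38, the assembly of mm10, where the spans overlapped by at least 0.5 of their union. Strand was not used in this match, so a row can count a transcript of the other strand. Ratios were taken for rows with a mean of at least 1 FPKM and no value of 0, without a pseudocount, and 1.5-fold was the threshold. Python 3.11.15, pandas 2.3.3 and numpy 2.4.6 were used.

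The text names all guidance genes and, of each other list, up to 3 genes with the widest log2 ratio; markers were named where a result stands beside them. The guidance genes and the lists were chosen with earlier results of these data known. Alternatives were the pseudocount, the minimum level, the scaling, the overlap, the sum of rows, loci without small RNA genes, the fold and, added after seeing the data, the choice of row.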

Additional observations from a re-analysis of the deposited data

How the results depend on the processing

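No paired analysis was possible because the deposited values are pooled over the libraries of each group, and for the same reason no library could be left out. All values here, unless said otherwise, are those with the rows of largest overlap, which give a Slit and Robo median of -0.60. The median log2 ratio of the guidance genes and the EphB, ephrin-B, netrin, FLRT and CXCL12 medians moved by over 0.1 with no alternative except upper-quartile scaling. That scaling took the quartile over rows above 0, of which there were 18930 in the non-silencing and 21220 in the knockdown group, and added 0.22 to every log2 ratio. With it the median was 0.20 for all guidance genes, 0.33 for EphA, 0.15 for EphB, 0.35 for ephrin-A, 0.20 for ephrin-B, 0.25 for the netrin system, -0.38 for Slit and Robo, 0.18 for FLRT and 0.11 for CXCL12, and Neurod2 was at -0.58, just under 1.5-fold. Differences between genes are not altered by it. At a minimum of 0.1 FPKM the median was -0.28 for Slit and Robo and -0.00063 for ephrin-A. At 5 FPKM, 0 genes were higher and ephrin-A was at -0.00063. With no minimum 2 genes were higher, ephrin-A was at -0.00063 and Slit and Robo at -0.39. An overlap of at least 0.8 gave -0.92 for Slit and Robo. Summing all rows of a gene gave 2 higher genes and -0.45 for Slit and Robo, and Epha4 changed sign, to -0.29. Without loci that hold a small RNA gene, 0 genes were lower, and the medians were 0.22 for EphA and -0.090 for Slit and Robo. With rows of several transcripts first, chosen after seeing the data, 0 genes were lower, Slit and Robo were at 0.062, and Slit2 (0.028) and Robo2 (0.17) changed sign. Over 2-fold, 0 genes were higher and 1 lower. With a pseudocount of 0.1 or 1 FPKM, Unc5b was at 0.56 or 0.34, under 1.5-fold. The 1 higher gene was then Ntn1, through the row listed at 0 and 4.29 FPKM that was matched to it without regard to strand. These causes were not tested beyond the construction of each alternative.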
